A study of Mus musculus with 6 samples.

Results

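The common gamma chain and related cytokine receptors are 10 genes, Il2ra, Il2rb, Il2rg, Il7r, Il4ra, Il21r, Il15ra, Il6ra, Il6st and Il10ra, chosen by symbol from the 37187 genes of the deposited tables, and each was found once in the raw count, normalized count and FPKM tables. They were measured by bulk RNA sequencing in 6 libraries of regulatory T cells (Tregs), 3 from il33-/- mice on a C57BL6 background (KO, replicates 4 to 6) and 3 from C57BL6 mice (WT, replicates 1 to 3). Both groups carried B16.F10 melanoma, a transplantable mouse tumour line, from a subcutaneous injection of 300000 cells, and the tumour-draining lymph nodes were taken on day 14. The cells were sorted as CD4+CD25+GITR+; CD25 is the product of Il2ra, so Il2ra describes cells that had already passed a gate on its protein. The labels also call the cells Foxp3+ but give no Foxp3 step in the sort, and they are silent on the age and sex of the mice and on pooling. They limit the deletion to no cell type. Il33 itself had 3, 8 and 2 reads in KO replicates 4, 5 and 6 and 7, 0 and 9 reads in WT replicates 1, 2 and 3, too few to check the genotype.

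Cytokines of the IL-2 family signal through receptors that share the gamma chain encoded by Il2rg. Each receptor adds its own chain, IL-7R alpha, IL-4R alpha or IL-21R, while IL-2 and IL-15 share the beta chain of Il2rb and differ in the alpha chains of Il2ra and Il15ra, which bind cytokine but have short cytoplasmic tails. The gamma chain recruits the kinase JAK3 and its partner chains recruit JAK1, which phosphorylate STAT proteins, mainly STAT5 for IL-2, IL-7 and IL-15. Mouse Tregs depend on IL-2, display much CD25 and carry less IL-7R alpha than conventional T cells. Il6ra and Il6st encode the alpha chain and the signalling chain gp130 of the IL-6 receptor, and Il10ra the ligand-binding chain of the IL-10 receptor.

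Of the 10 receptor genes, Il15ra alone passed the test between KO and WT Tregs, and it was higher in KO. The other 9 had fold changes between 0.887 and 1.14 in the same test, and none of the 10 fell. All 10 passed the filter on low counts. The comparison was made on raw counts across 13626 genes with edgeR's quasi-likelihood test and Benjamini-Hochberg adjustment at a threshold of 0.05, and it called 6.5% of all genes tested, 3.68% higher and 2.83% lower in KO. Against that background, 1 gene of 10 does not set the receptor genes apart. When libraries were scaled to the summed T lineage markers instead, 1 of the 10 was again higher and 0 lower, against 1.85% of all genes higher and 4.31% lower (252 and 587 genes, compared with 501 and 385), and the median of all genes shifted by -0.090 on the log2 scale. The median log2 fold change of the 10 genes was 0.15, against 0.00026 over all genes tested, and the median absolute log2 fold change was 0.15, against 0.12. Every KO library lay above every WT library in CPM (counts scaled to library size) for 4 of the 10 genes, Il21r, Il15ra, Il6ra and Il6st, and below for 0, while 13.7% of all genes tested were separated upward and 12.6% downward.

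Total counts ran from 18071928 to 21165063 per library. The Treg gene Foxp3 had 831.7 ± 36.6 CPM in KO and 750.6 ± 45.6 CPM in WT (SD, n = 3 each), and 16 T lineage markers summed to between 7037 and 7540 CPM in KO and between 6597 and 7084 CPM in WT. Transcripts of B cells were also present. The 17 B cell markers measured, none of them at 0, summed to between 1351 and 1674 CPM in KO and to 3598, 2229 and 2955 CPM in WT replicates 1, 2 and 3, with 0 called higher and 1 lower (Vpreb3) by edgeR and a median log2 fold change of -1.91. For this and the marker lists below, the background over all genes tested was 3.68% called higher and 2.83% lower. Vpreb3 lost its call in 5 of the 6 fits that left out a library, at an edgeR adjusted p as high as 0.167. The T lineage markers had a median log2 fold change of 0.092, with 1 called higher (Cd28, not called without WT replicate 3 at an edgeR adjusted p of 0.0520) and 0 lower. In bulk RNA, fewer cells of a type and less RNA per cell cannot be told apart. Markers of CD8 and NK cells summed to between 30.8 and 41.6 CPM in KO and between 42.8 and 48.8 CPM in WT. Those of dendritic and myeloid cells summed to between 46.9 and 69.0 CPM in KO and between 47.4 and 68.1 CPM in WT. Of the dendritic and myeloid markers 1 was called higher and 1 lower by edgeR. Cd68 had 18.9 ± 3.17 CPM in KO and 10.1 ± 2.21 CPM in WT and lost the call without KO replicate 6, and Siglech had 0.857 ± 0.0472 CPM in KO and 2.08 ± 0.590 CPM in WT and lost it in 5 of the 6 fits. Treg markers summed to between 3830 and 4031 CPM in KO and between 2952 and 3449 CPM in WT. The part of any of these marker differences in the receptor results was not tested. Whether each library came from a different mouse is not labelled, so a p-value here covers the spread among libraries and no more.

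**Figure D1:**
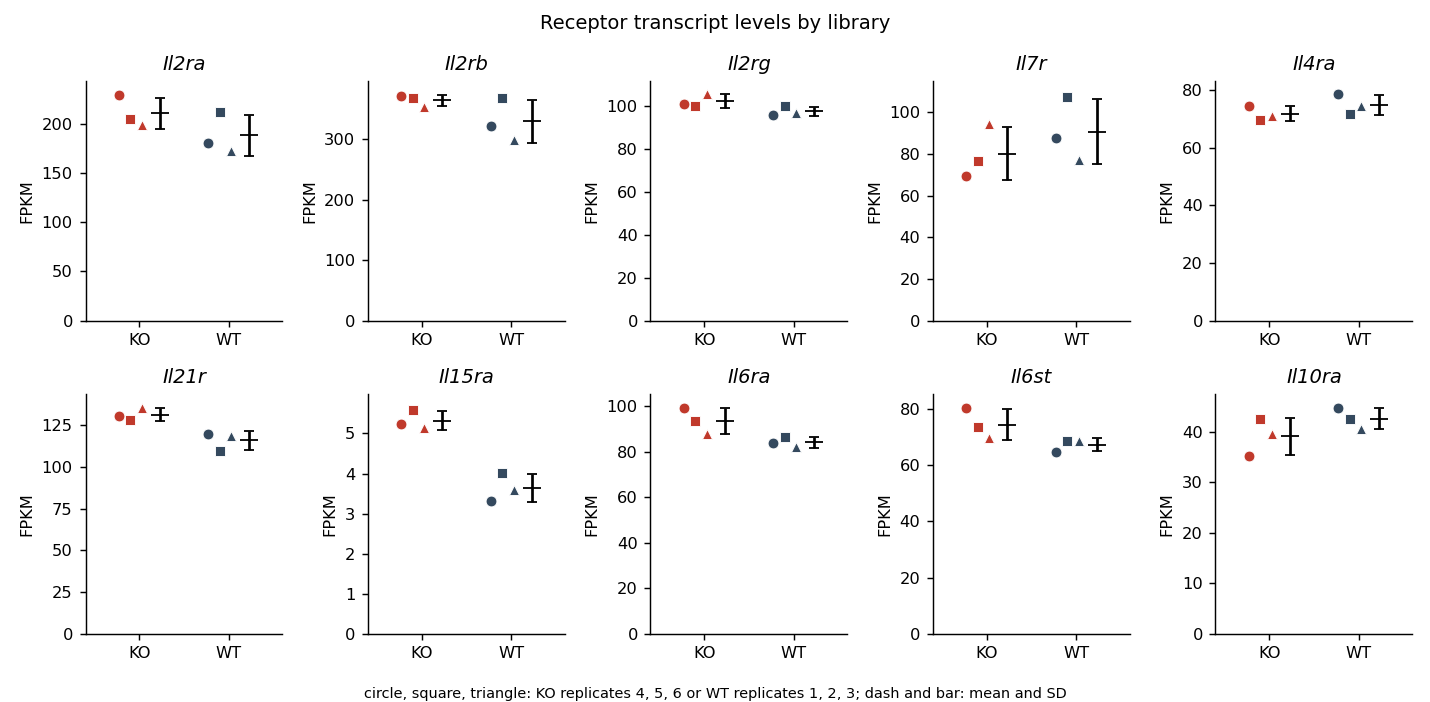
Transcript level of the 10 receptor genes in FPKM (reads scaled to transcript length and library size, as deposited) in each library, KO left and WT right, each axis starting at 0. Points are single libraries and the dash with bar is the mean with its SD (n = 3 each). Il15ra has the widest gap between the groups relative to its level, 5.14 to 5.58 FPKM in KO and 3.32 to 4.02 FPKM in WT, and WT replicate 2 is the highest WT library for 7 of the 10 genes, all but Il4ra, Il21r and Il10ra.

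Il15ra encodes the alpha chain that binds IL-15 and can present it to neighbouring cells carrying the beta and gamma chains. It had 455, 484 and 449 reads in KO replicates 4, 5 and 6, against 289, 319 and 268 reads in WT replicates 1, 2 and 3. As levels this was 5.24, 5.58 and 5.14 FPKM in KO and 3.32, 4.02 and 3.58 FPKM in WT. The lowest KO library lay above the highest WT library, and replicate 2 was the highest of the WT libraries. KO stood 1.47-fold above WT (95% interval 1.26 to 1.71), or 0.55 in log2 units (SE 0.10), and the edgeR adjusted p was 0.00754. Leaving out single libraries kept the call in each of 6 fits, with log2 fold changes from 0.49 to 0.63 and edgeR adjusted p-values from 0.00146 to 0.0422. Adding a B cell score to the model, the average over the marker list in log2 CPM, gave 0.37 at an edgeR adjusted p of 0.593. That score was lower in every KO library (4.27 to 4.98) than in any WT library (5.39 to 6.81), so the model cannot tell it from genotype. With the score 0.294% of all genes were called, against 6.5% without it. Dropping WT replicates 1 and 3, which held the most B cell marker signal, gave 0.41 for Il15ra. Tested with limma on log2(FPKM + 1) and log2(FPKM + 0.1), Il15ra was at 0.45 and 0.54, at adjusted p-values of 0.0719 and 0.0635.

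Il15ra (ENSMUSG00000023206) lies on the plus strand of chromosome 2, 11705290 to 11734317 on GRCm38, 12.1 kb past the end of Il2ra, which occupies 11642807 to 11693193 on the same strand with 0 annotated genes between them. RefSeq (GRCm38.p6) lists 2 starts for Il15ra and 1 for Il2ra, and the bases before them outside annotated exons are shown because this pair of neighbours held the one receptor gene that differed and the receptor gene used in the sort. Capitals mark a match to the AP-1 motif TGANTCA.
Il15ra, first start, chr2:11705043-11705289, plus strand: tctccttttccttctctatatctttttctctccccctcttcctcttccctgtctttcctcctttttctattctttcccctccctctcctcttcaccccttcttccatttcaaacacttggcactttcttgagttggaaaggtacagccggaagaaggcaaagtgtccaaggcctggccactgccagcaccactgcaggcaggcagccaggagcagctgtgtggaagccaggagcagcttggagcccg
Il15ra, second start, chr2:11705579-11705711, plus strand: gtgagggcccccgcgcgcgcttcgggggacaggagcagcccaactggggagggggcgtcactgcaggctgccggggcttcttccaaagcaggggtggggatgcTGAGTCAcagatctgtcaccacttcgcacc
Il2ra, chr2:11642542-11642791, plus strand: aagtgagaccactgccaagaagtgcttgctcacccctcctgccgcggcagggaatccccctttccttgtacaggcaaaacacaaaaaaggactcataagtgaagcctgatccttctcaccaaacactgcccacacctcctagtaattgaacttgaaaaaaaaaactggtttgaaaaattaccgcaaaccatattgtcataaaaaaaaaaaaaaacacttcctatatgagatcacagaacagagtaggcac
Across the 9 windows of 250 bases before a listed start that were found for 8 of the receptor genes, searched on both strands, the AP-1 motif was in 1, the STAT motif TTCNNNGAA in 1 (Il7r) and the interferon response core, a pair of TTTC runs with any 2 bases between them, in 0. The AP-1 match began 30 bases before the second Il15ra start, in the second stretch printed. Of 32851 such windows over all listed starts 6.75% held the AP-1 motif, 7.02% the STAT motif and 2.98% the interferon core; TGANTCA and TTCNNNGAA each read the same on both strands. Motif letters describe these windows and say nothing of binding. The Il7r window, 9529877 to 9530126 on the minus strand, lies inside the annotated span of Il7r, 9505788 to 9530176. The AP-1 motif was added after the windows had been read.

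Il2ra, the alpha chain that raises the affinity for IL-2, had 229, 205 and 198 FPKM in KO replicates 4, 5 and 6 and 180.5, 212 and 173 FPKM in WT replicates 1, 2 and 3. The groups overlapped, since WT replicate 2 lay above KO replicates 5 and 6. Its log2 fold change was 0.16 (SE 0.08, 95% interval -0.0089 to 0.34), with an edgeR adjusted p of 0.256. Il2rb, the beta chain of the IL-2 and IL-15 receptors on the minus strand of chromosome 15 from 78479256 to 78495271, had 371, 368 and 354 FPKM in KO and 322, 367 and 299 FPKM in WT. It too overlapped only through WT replicate 2, with a log2 fold change of 0.15 (SE 0.07, 95% interval 0.0014 to 0.30) and an edgeR adjusted p of 0.224. Without WT replicate 2, Il2ra and Il2rb both passed, at log2 fold changes of 0.26 and 0.24 and edgeR adjusted p-values of 0.0294 and 0.0299, when 4.47% of all genes were called higher. Without WT replicates 1 and 3 their log2 fold changes were -0.0010 and -0.0053, and in the model holding the B cell score they were -0.064 and -0.042, so neither had a direction that held across the alternatives.

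Il2rg, the shared gamma chain on the minus strand of chromosome X from 101264378 to 101268255, had 101, 99.9 and 106 FPKM in KO and 96.0, 100.2 and 96.8 FPKM in WT. Only KO replicate 5 lay within the range of WT. Its log2 fold change of 0.071 (SE 0.05, 95% interval -0.042 to 0.18, edgeR adjusted p = 0.481) was below the 0.092 median of the T lineage markers, and scaling the libraries to the summed T lineage markers gave -0.020. The interval leaves room for a rise of up to 1.14-fold. The annotated gene Gm20489 shares 728 bases of exon with Il2rg, on the same strand, and held 7 reads over all libraries. How reads in the shared bases were assigned is not stated, so the level of Il2rg may lack some of them.

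None of the private chains of Il21r, Il4ra and Il7r, which pair with the gamma chain, passed the test. Il21r, the receptor for IL-21, had 131, 128 and 136 FPKM in KO, against 120.1, 109 and 119 FPKM in WT. All KO libraries lay above all WT libraries, and WT replicate 2 was the lowest. In log2 units KO was 0.18 above WT (SE 0.06, 95% interval 0.064 to 0.30; edgeR adjusted p = 0.0695). It passed with DESeq2 at an adjusted p of 0.0368, with upper-quartile factors at 0.0446 and with no filter at 0.0406, where the shares of all genes called higher were 3.75%, 4.35% and 3.35%, and was 0.090 when scaled to T lineage markers (edgeR adjusted p = 0.485).

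Il4ra, the chain shared by the IL-4 and IL-13 receptors, had 74.6, 69.7 and 71.0 FPKM in KO, against 78.7, 71.8 and 74.4 FPKM in WT. The groups overlapped, with a log2 fold change of -0.060 (SE 0.06, 95% interval -0.18 to 0.059) and an edgeR adjusted p of 0.592. It lies on chromosome 7 from 125552120 to 125579474 on the plus strand, and Il21r begins 24.0 kb further on at 125603429, with 0 annotated genes between. The antisense gene Gm44876 shares 571 bases of exon with Il4ra, and without known strand use their reads cannot be told apart.

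Il7r, the alpha chain of the IL-7 receptor, had the widest spread within the groups relative to its mean, and lies on chromosome 15 from 9505788 to 9530176 on the minus strand. It had 69.4, 76.8 and 94.1 FPKM in KO replicates 4, 5 and 6, against 87.5, 107 and 76.9 FPKM in WT replicates 1, 2 and 3. The ranges overlapped over most of their length. The log2 fold change was -0.17 (SE 0.17, 95% interval -0.61 to 0.27), with an edgeR adjusted p of 0.648. The interval spans 0, so these libraries leave room for a fall or a rise within it. In KO the library with the highest Il2ra had the lowest Il7r, whereas WT replicate 2 was the highest WT library for both.

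**Figure D2:**
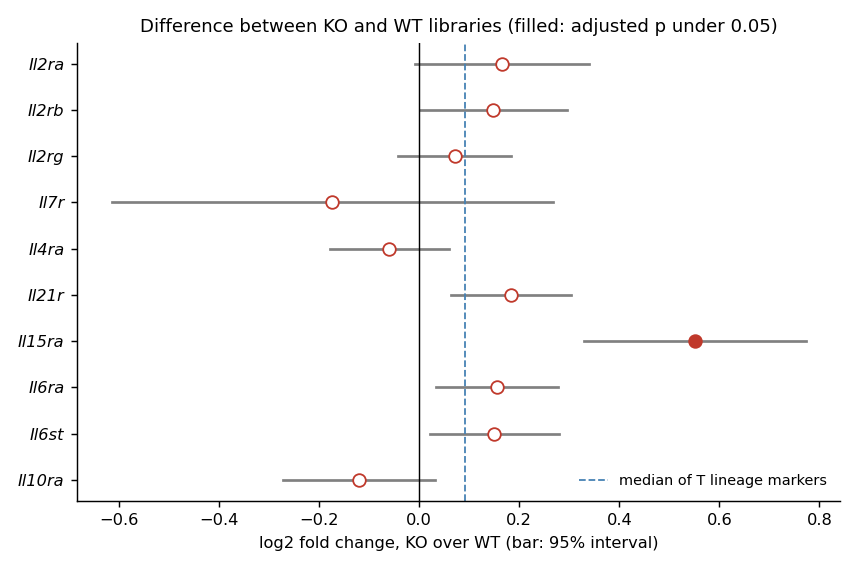
Fitted log2 fold change of KO over WT for the 10 receptor genes, with the 95% interval as a bar; the filled point passed an adjusted p of 0.05 in edgeR's test and the dashed line is the median of 16 T lineage markers, 0.092. Il15ra is the filled point at 0.55, and Il7r has the widest interval, -0.61 to 0.27.

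The IL-6 receptor pair was higher in every KO library by a small margin, and neither gene passed. Il6ra had 99.3, 93.2 and 87.7 FPKM in KO, against 83.9, 86.4 and 81.8 FPKM in WT. Il6st had 80.4, 73.5 and 69.6 FPKM in KO, against 64.6, 68.7 and 68.5 FPKM in WT. The groups of both genes were separated, with KO replicate 6 nearest to WT in each. Log2 fold changes were 0.16 (SE 0.06, 95% interval 0.034 to 0.28) for Il6ra and 0.15 (SE 0.06, 95% interval 0.021 to 0.28) for Il6st, with edgeR adjusted p-values of 0.128 and 0.163. In the fit scaled to T lineage markers they were 0.067 and 0.062. Il6ra lies on chromosome 3 from 89864059 to 89913196 on the minus strand and shares 242 bases of exon with the antisense gene Gm42809, and Il6st lies on chromosome 13 from 112464070 to 112510086 on the plus strand.

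Il10ra, on the minus strand of chromosome 9 from 45253837 to 45269149, had 35.2, 42.5 and 39.6 FPKM in KO, against 44.7, 42.6 and 40.5 FPKM in WT. KO replicate 4 was the lowest library and the groups overlapped. Its log2 fold change was -0.12 (SE 0.07, 95% interval -0.27 to 0.032), with an edgeR adjusted p of 0.361.

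The order of levels per length was similar in both groups. In KO it ran Il2rb, Il2ra, Il21r, Il2rg, Il6ra, Il7r, Il6st, Il4ra, Il10ra and Il15ra, with mean levels of 364 ± 9.16 FPKM for Il2rb, 211 ± 16.0 FPKM for Il2ra and 5.32 ± 0.232 FPKM for Il15ra (SD, n = 3). In WT it ran Il2rb, Il2ra, Il21r, Il2rg, Il7r, Il6ra, Il4ra, Il6st, Il10ra and Il15ra, with 329 ± 35.0 FPKM for Il2rb, 188 ± 20.7 FPKM for Il2ra and 3.64 ± 0.355 FPKM for Il15ra. Neighbours whose libraries overlapped were Il6ra and Il7r, Il7r and Il6st, and Il6st and Il4ra in KO, and Il2rg and Il7r, and Il7r and Il6ra in WT; all other neighbours were apart in every library. The deposited FPKM rest on a length for each gene that can be read back from the tables, 5207 bases for Il6st and 3343 for Il6ra, against merged exon lengths of 11099 and 8642 in GENCODE M21. With the GENCODE lengths Il4ra ranked 5, Il7r 6, Il10ra 7, Il6ra 8 and Il6st 9 in both groups. Il21r and Il2rg changed places in WT, and Il2rb, Il2ra and Il15ra kept ranks 1, 2 and 10.

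Ratios of the deposited FPKM within a library set partner chains side by side. The ratio of Il15ra to Il2rb was 0.0141, 0.0152 and 0.0145 in KO, against 0.0103, 0.0109 and 0.0120 in WT, and the groups did not overlap. Il15ra was likewise higher relative to Il2ra and to Il2rg in every KO library than in any WT library. These ratios share the numerator Il15ra, which was itself apart between the groups, so they largely repeat its difference. The ratio of Il2ra to Il2rb was 0.578 ± 0.0335 in KO and 0.571 ± 0.0100 in WT (SD, n = 3 each), with overlapping groups. The ratio of Il6ra to Il6st was 1.25 ± 0.0181 in KO and 1.25 ± 0.0533 in WT, also overlapping. For the neighbours Il21r and Il4ra the ratio was 1.75, 1.84 and 1.91 in KO, against 1.53, 1.52 and 1.60 in WT, with all KO libraries above all WT libraries. The ratio of Il21r to Il2rg was apart too, at 1.29, 1.28 and 1.28 in KO, against 1.25, 1.09 and 1.23 in WT. Il21r was itself apart between the groups, so its ratios repeat that difference in part. The ratios of Il2ra, Il2rb, Il7r and Il4ra to Il2rg overlapped, as did that of Il7r to Il2ra. A comparison of 3 libraries with 3 cannot give a two-sided exact permutation p below 0.10, so these ratios are given without a test.

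**Figure D3:**
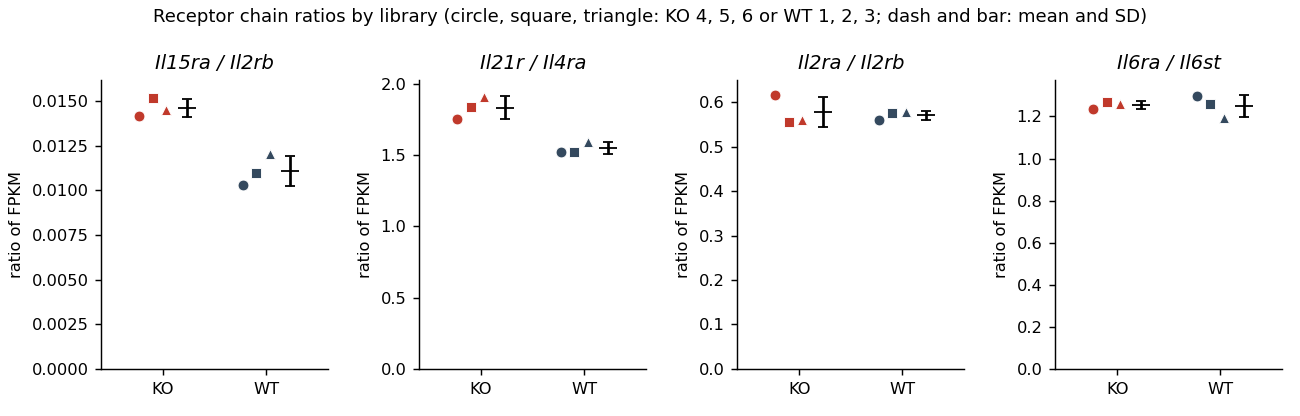
Ratio of deposited FPKM between receptor chains in each library, KO left and WT right, axes starting at 0; points are libraries and the dash with bar is the mean with its SD (n = 3 each). The ratios of Il15ra to Il2rb and of Il21r to Il4ra are apart between the groups, and those of Il2ra to Il2rb and of Il6ra to Il6st overlap.

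The receptor genes were also set against B cell marker signal, library by library. WT replicate 2, the WT library with the least B cell marker signal, lay nearest to the KO libraries for Il15ra at 16.6 CPM and within the KO range for Il2ra at 1080 CPM, but farthest from them for Il21r at 286 CPM and for Il7r at 345 CPM. KO libraries ranged from 21.4 to 23.1 CPM for Il15ra, 1021 to 1169 CPM for Il2ra, 335 to 357 CPM for Il21r and 224 to 305 CPM for Il7r. The other 2 WT libraries had 13.7 and 14.8 CPM of Il15ra, 923 and 883 CPM of Il2ra, 314 and 311 CPM of Il21r and 282 and 248 CPM of Il7r.

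**Figure D4:**
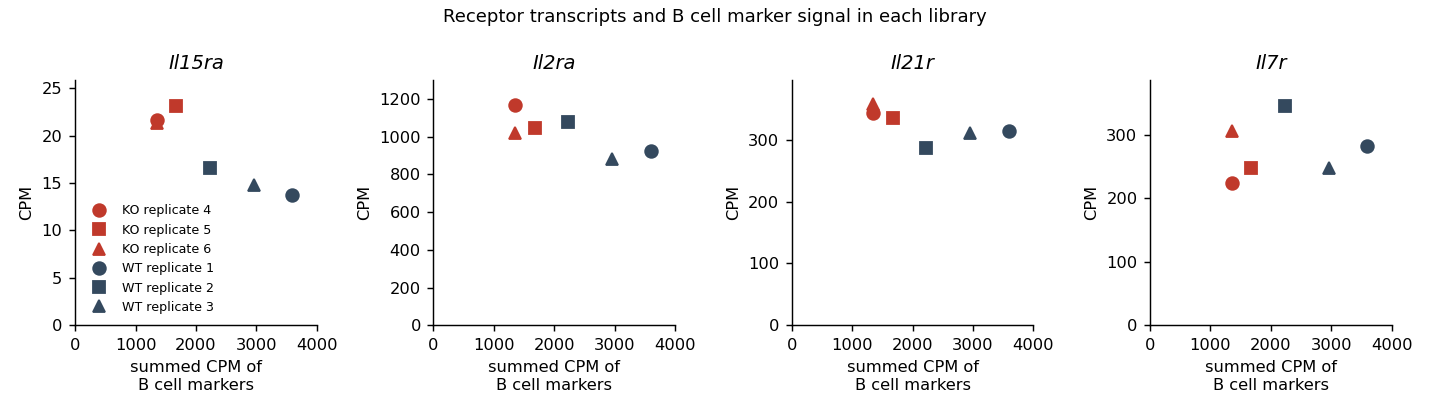
CPM of 4 receptor genes against the summed CPM of 17 B cell markers in each of the 6 libraries, KO in red and WT in blue. WT replicate 2, at 2229 CPM of B cell markers, is nearest to KO for Il15ra and farthest from KO for Il21r and Il7r.

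The genes whose pattern over the 6 libraries was most like that of Il15ra, by the root mean square difference of centred log2 CPM among 8793 protein-coding genes with a mean of at least 10 CPM, were Ccr8 (0.038), Ncmap (0.044) and Ctla4 (0.045). Ccr8, a chemokine receptor gene of effector Tregs, had 56.0 ± 3.54 CPM in KO and 38.5 ± 4.88 CPM in WT, and Ncmap had 51.8 ± 0.383 CPM in KO and 36.2 ± 3.37 CPM in WT (SD, n = 3 each). Ctla4, which encodes an inhibitory receptor, had a log2 fold change of 0.53 (SE 0.08) at an edgeR adjusted p of 0.00220. These genes were chosen for likeness to Il15ra over the same libraries, so their differences between KO and WT follow from that choice and are no separate evidence.

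Of 18 ligand genes of these receptor families 9 could be tested, and 1 rose and 0 fell (background 3.68% and 2.83%), around a median of -0.15 in log2 units. Lif, whose product signals through gp130 and the LIF receptor, rose to 22.1, 22.1 and 18.0 CPM in KO, against 12.4, 14.1 and 14.5 CPM in WT. The groups were apart, by 0.60 in log2 units (SE 0.11), and the edgeR adjusted p of 0.00845 stayed under the threshold without any single library. Il10, the ligand of Il10ra, had 17.0 ± 0.495 CPM in KO and 11.2 ± 2.97 CPM in WT, and Clcf1, another gp130 ligand gene, had 140.1 ± 8.89 CPM in KO and 158.1 ± 20.0 CPM in WT, with edgeR adjusted p-values of 0.0570 and 0.273. Transcripts of the gamma chain cytokines, named outside the rule for named genes, were few. Il21 had the most, with 134 reads in KO and 145 in WT, and Il4 had 58 reads in KO and 65 in WT, and neither passed. Il2 had 24, 14 and 10 reads in KO and 16, 27 and 16 reads in WT, and Il15 had 25, 16 and 16 reads in KO and 17, 5 and 19 reads in WT, and neither passed. Il7 and Il9, too low to be tested, summed to 13 and 2 reads in KO and to 4 and 0 reads in WT, where 0 reads allow up to 0.142, 0.156 and 0.166 CPM in WT replicates 1, 2 and 3, for counting error only.

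Of 27 other receptor chains of the related families 21 were tested, and 0 rose and 1 fell (background 3.68% and 2.83%). Il5ra, the IL-5 receptor alpha chain known from B cells and eosinophils, had 26 reads in KO and 112 in WT, with levels of 0.477, 0.429 and 0.333 CPM in KO, against 2.90, 1.25 and 1.49 CPM in WT. Il5ra was lowest among WT libraries in replicate 2, and without KO replicate 6 its edgeR adjusted p was 0.0545. Its log2 fold change was -2.18, against -0.93 with the B cell score in the model and -1.58 without WT replicates 1 and 3. A link of Il5ra to B cell signal was not tested. Ifngr1 and Il10rb, the partner of Il10ra, had 224 ± 16.3 and 65.7 ± 0.841 CPM in KO, against 189 ± 14.9 and 57.3 ± 0.179 CPM in WT, with edgeR adjusted p-values of 0.0525 and 0.0534. Lifr, the LIF receptor gene and outside the rule for named genes, had 1.33, 1.33 and 0.714 CPM in KO, against 11.9, 2.91 and 3.43 CPM in WT. Its groups were apart, with a log2 fold change of -2.43 (SE 0.72), but it did not pass (edgeR adjusted p = 0.141). The median log2 fold change of the tested chains was 0.0091. Il13ra2 and Il22ra1 had 0 reads in all 6 libraries.

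Downstream of the receptors, most genes of the JAK-STAT relay did not pass. Of its 20 genes 0 rose and 1 fell (background 3.68% and 2.83%), around a median of 0.016 in log2 units. Ptpn6, a phosphatase that restrains cytokine and antigen receptor signals, fell to 299 ± 9.84 CPM in KO, against 383 ± 46.0 CPM in WT (edgeR adjusted p = 0.0206). It kept the call without WT replicate 2 and lost it in the other 5 fits that left out a library, where the edgeR adjusted p ran up to 0.0988. The log2 fold change of Ptpn6 was -0.36, against -0.071 once the B cell score was in the model. Stat5a had 173 ± 9.28 CPM in KO and 149.6 ± 5.61 CPM in WT, with every KO library higher, and an edgeR adjusted p of 0.0534. Jak1 and Jak3, the kinases of the gamma chain receptors, also outside that rule, had log2 fold changes of -0.064 (SE 0.05) and 0.0076 (SE 0.05).

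Of 20 STAT5 targets and feedback genes 2 rose and 0 fell (background 3.68% and 2.83%), around a median of 0.072 in log2 units. Pim1, a survival kinase induced by STAT5, rose to 667, 647 and 587 CPM in KO, against 412, 509.8 and 460.4 CPM in WT, and Lta, which encodes lymphotoxin alpha, rose to 105 ± 8.73 CPM in KO, against 82.5 ± 2.57 CPM in WT. The groups were apart for both genes (edgeR adjusted p = 0.00597 and 0.00980), and Lta was at 0.0676 without WT replicate 3 and at 0.0795 when scaled to T lineage markers. Cish, a STAT5 target that restrains cytokine signalling and is likewise outside it, had 186, 138 and 149 CPM in KO and 113, 148 and 118 CPM in WT, with an edgeR adjusted p of 0.290. Foxp3 and Bcl2l1 had log2 fold changes of 0.15 and 0.17, and neither passed (edgeR adjusted p = 0.160 and 0.185).

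Of 13 factors known to control Il7r or Il2ra in T cells 1 rose and 0 fell (background 3.68% and 2.83%), around a median of 0.025 in log2 units. Foxo1, an activator of Il7r in mouse T cells, rose to 405 ± 4.52 CPM in KO, against 356 ± 9.30 CPM in WT (log2 fold change 0.18, edgeR adjusted p = 0.0442), and it lost the call in all 6 fits that left out a library, with an edgeR adjusted p of 0.0602 to 0.153. Scaled to T lineage markers, Foxo1 was 0.093 at an edgeR adjusted p of 0.448. Gfi1, a repressor of Il7r in mouse T cells, had 35.2 ± 2.95 CPM in KO and 28.0 ± 2.72 CPM in WT (edgeR adjusted p = 0.0517), and Klf2 had 609 ± 37.6 CPM in KO and 538 ± 37.8 CPM in WT (edgeR adjusted p = 0.118). Of 10 genes of receptor shedding and trafficking 0 rose and 1 fell (background 3.68% and 2.83%), around a median of -0.10. Nedd4, a ubiquitin ligase, fell to 12.5, 10.5 and 9.23 CPM in KO, against 17.0, 16.2 and 16.4 CPM in WT (edgeR adjusted p = 0.0107), and lost the call without WT replicate 3 or KO replicate 6, at up to 0.0540. Rhbdf2 and Hgs had log2 fold changes of -0.34 and -0.16, and neither passed (edgeR adjusted p = 0.0885 and 0.174). Of 8 Treg markers 4 rose (Ikzf4, Ctla4, Nrp1 and Tnfrsf4) and 0 fell, where 3.68% of all genes tested rose and 2.83% fell. Ctla4 and Nrp1 kept their calls without any single library, while Ikzf4 and Tnfrsf4 each lost it in 4 of the 6 such fits. None of the 4 kept the call in the model holding the B cell score (edgeR adjusted p = 0.869, 0.481, 0.511 and 0.893), where 0.183% of all genes were called higher. Ikzf4 and Tnfrsf4 also lost it when libraries were scaled to T lineage markers, at edgeR adjusted p-values of 0.0999 and 0.168. The model holding the B cell score cannot tell that score from genotype. Without WT replicates 1 and 3 the log2 fold changes of Ikzf4, Ctla4, Nrp1 and Tnfrsf4 were 0.24, 0.40, 0.40 and 0.15. With limma on log2 FPKM, Nrp1 kept its call with either pseudocount. There Ctla4 kept it only with 0.1 (limma adjusted p = 0.0498), and Ikzf4 and Tnfrsf4 lost theirs.

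**Figure D5:**
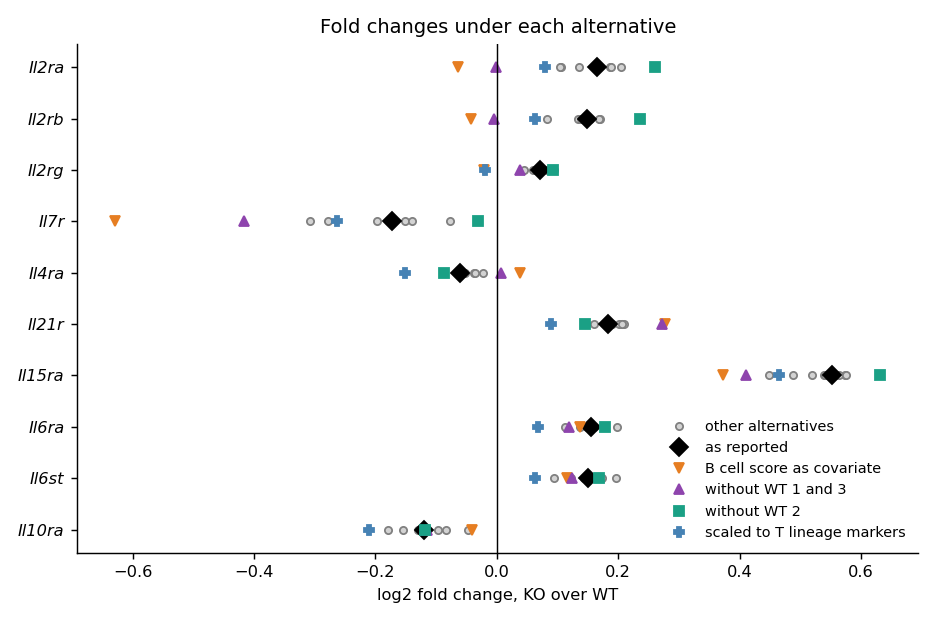
Log2 fold change of KO over WT for each receptor gene under the reported fit (black diamonds) and each of 18 alternatives. Il15ra is above 0 in all of them, from 0.37 to 0.63, whereas Il2ra, Il2rb, Il2rg and Il4ra each lie on both sides of 0.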

How the data were processed

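RNA of 6 libraries, 3 KO and 3 WT, was analysed from 3 deposited tables. The submitters' processing notes name DESeq2, bcl2fastq and STAR 2.4.2a along with GRCm38. The sources used here do not say how reads were counted, on which annotation, or whether by strand. Deposited by the authors were raw counts by Ensembl ID, normalized counts (a signal, equal for the receptor genes to raw counts over 1 factor per library) and FPKM, which were the normalized counts over 1 constant per gene for 100.0% of 10418 genes checked within 1e-06. Since strand use is unknown, Il4ra and Il6ra may include reads of antisense genes that share exon bases with them.

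GENCODE M21 (same build) gave symbols to 35412 of 37187 IDs. The main test used the raw counts in edgeR 4.0.16 under R 4.3.3 (filterByExpr, TMM, robust quasi-likelihood fit, two-sided, Benjamini-Hochberg over all genes, threshold 0.05); CPM use TMM factors, and standard errors and intervals follow from the F statistic. The script was tested on simulated data. Depth was 18071928 to 21165063 counts; a floor of 3 counts covers counting error alone. Named were the receptor genes and, per list, up to 4 called genes and up to 2 others by smallest p, and for each receptor gene that passed the 3 genes most alike. Members, lists and alternatives were chosen with earlier results of these data known. Alternatives were DESeq2 1.42.0, limma 3.58.1 (voom, or log2 of FPKM or normalized counts plus a pseudocount), RLE and upper-quartile factors, other filters, leaving out libraries, a B cell score covariate and, added after seeing the data, scaling to T lineage markers. Of 18 B cell markers Ighd was not matched. The list of naive conventional T cell markers is not reported here.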

Additional observations from a re-analysis of the deposited data

How the results depend on the processing

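The number of receptor genes called higher in KO was 1 as reported. It was 2 with DESeq2, with upper-quartile factors and with no filter (Il21r added each time), and 0 in the model holding the B cell score, with limma on log2(FPKM + 1) or log2(FPKM + 0.1) and without WT replicates 1 and 3, where Il15ra had adjusted p-values of 0.593, 0.0719, 0.0635 and 0.210; leaving out single libraries gave 1 to 3, with 3 only without WT replicate 2. No alternative called a receptor gene lower. Of the pathway genes called (Lif, Il5ra, Ptpn6, Pim1, Lta, Foxo1 and Nedd4), none kept the call with limma on FPKM, in the model holding the B cell score or without WT replicates 1 and 3, and all kept their direction there; Lta and Foxo1 also lost it when scaled to T lineage markers. The median log2 fold change of the 10 genes, 0.15 as reported, was 0.0079 with that score in the model, 0.062 when scaled to T lineage markers, 0.022 without WT replicates 1 and 3, and 0.094 to 0.16 when single libraries were left out. Directions turned for Il2ra, Il2rb, Il2rg and Il4ra with the score (-0.064, -0.042, -0.022 and 0.037), for Il2ra, Il2rb and Il4ra without WT replicates 1 and 3 (-0.0010, -0.0053 and 0.0064) and for Il2rg when scaled to T lineage markers (-0.020); the cause was not tested, here or for the changed counts. When those 2 libraries are dropped the lone WT library is assumed to vary like KO. The B cell score was lower in every KO library than in any WT library, so the fit holding it cannot tell B cell signal from genotype. Over all genes, 501 were called higher and 385 lower as reported. These counts were 546 and 622 with DESeq2, 806 and 839 with no filter, 25 and 15 with the score, 252 and 587 when scaled to T lineage markers, 113 and 59 with log2(FPKM + 1), 141 and 72 with log2(FPKM + 0.1), and 182 and 100 without WT replicates 1 and 3. Leaving out single libraries gave 239 to 626 higher and 128 to 738 lower, with the most of both without WT replicate 2 and the fewest without WT replicate 3. No paired analysis was made because the labels do not say whether any KO and WT libraries were paired.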
